A study of Mus musculus with 12 samples.

Results

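Microglia, the resident macrophages of the brain, depend on a small set of transcription factors, and the mRNA of 9 of them was followed here across 4 brain regions. The genes were Spi1, Irf8, Sall1, Maf, Mef2a, Mef2c, Runx1, Cebpa and Cebpb, taken by symbol from a table of 23337 gene symbols, in which Spi1 stands under its older symbol Sfpi1. All 9 were present and all 9 passed the filter on low counts. Bulk RNA-seq had been done on 12 libraries, 3 each from cerebellum, striatum, hippocampus and cortex. All came from male wild type C57BL/6N mice aged P60 (postnatal day 60), and no group carried a treatment or allele. Each library was made from 3000 live cells of the TMEM119+ gate, which was also CD45 low and CD11b+, out of tissue combined from 3 to 5 animals, and is an average over those mice. Region is therefore the only labelled difference, and the question asked of the data is whether these regulators differ between microglia of different regions. Whether the 3 pools of a region were separate mice is not stated in the labels. The p-values therefore set regions against the spread of these libraries alone, and that spread may be technical.

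PU.1, the product of Spi1, is an ETS factor that myeloid cells need to form and that opens and occupies many macrophage enhancers, often with IRF8 beside it. RUNX1 acts earlier, in blood cell formation, and C/EBP alpha and beta act in myeloid differentiation and inflammatory gene control. SALL1, a zinc finger factor, marks microglia among brain macrophages and is needed for their resting state, while the MEF2 factors and MAF family members bind at microglial enhancers.

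The RNA carried microglial markers. P2ry12, a purinergic receptor of resting microglia, ranged from 4085 to 6406 CPM (read counts scaled to library size, with sizes adjusted by TMM) and Tmem119, the gene of the sorting antigen, from 1082 to 3241 CPM. Gata6, the factor of peritoneal macrophages, had no read in any of the 12 libraries. Library totals lay between 6479839 counts (striatum 2) and 14833340 counts (cortex 2), and a gene with no read in a library may still be present at up to 3 counts there. Summed markers of other cells reached 36.1 CPM for 8 neuronal genes, 108 CPM for 6 astrocyte genes, 49.6 CPM for 7 oligodendrocyte genes and 46.4 CPM for 8 vessel genes, with lowest sums of 5.33, 36.3, 19.7 and 0.970 CPM. Monocyte and neutrophil genes summed to 0.162 to 17.3 CPM over 6 genes, and Ly6c2 was at 0 throughout. Lymphoid genes summed to 0 to 82.0 CPM over 5 genes, with Cd3e and Ms4a1 at 0 throughout. In all, 2 libraries stood apart. Striatum 2 had no read for 986 of the 10018 genes that averaged at least 50 counts, against 4 to 44 such genes in the other 11 libraries, and held the highest choroid plexus sum, 677 CPM. Cortex 1 was the most shifted toward short genes, as described further on, and named differences between regions that move by over 1.5 times without either library are given with and without it. In bulk samples fewer cells of a type and less RNA per cell cannot be told apart.

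The promoters of 4 genes are shown because these include the pairs whose levels moved together most closely over the libraries (Sall1 with Runx1, and Mef2a with Mef2c). Each is the RefSeq window of 250 bases before to 50 bases after a start site on GRCm38.p6, written 5′ to 3′ on the strand of the gene, with the most upstream start used where a gene has several. Capitals mark matches to 6 short motifs searched on both strands: GAGGAA for PU.1, TGTGGT for RUNX, CTA and TAG with 4 bases of any kind between them for MEF2, TTGCNNAA for C/EBP, GAAA and GAAA with 2 bases of any kind between them for the interferon response element bound by IRF factors, and TGCTGA for MAF.
Sall1, chr8:89044113-89044412, minus strand: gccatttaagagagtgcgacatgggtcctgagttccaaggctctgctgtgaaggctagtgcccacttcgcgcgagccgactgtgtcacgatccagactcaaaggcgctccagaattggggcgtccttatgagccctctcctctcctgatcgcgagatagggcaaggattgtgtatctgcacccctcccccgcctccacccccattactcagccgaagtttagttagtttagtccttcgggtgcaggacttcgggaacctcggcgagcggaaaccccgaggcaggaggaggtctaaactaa
Runx1, chr16:92826025-92826324, minus strand: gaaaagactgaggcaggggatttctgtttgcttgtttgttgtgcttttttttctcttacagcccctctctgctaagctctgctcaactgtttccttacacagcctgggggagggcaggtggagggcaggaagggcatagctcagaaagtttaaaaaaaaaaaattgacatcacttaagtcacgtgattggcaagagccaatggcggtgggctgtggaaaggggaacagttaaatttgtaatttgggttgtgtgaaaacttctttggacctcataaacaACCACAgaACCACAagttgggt
Mef2a, chr7:67372809-67373108, minus strand: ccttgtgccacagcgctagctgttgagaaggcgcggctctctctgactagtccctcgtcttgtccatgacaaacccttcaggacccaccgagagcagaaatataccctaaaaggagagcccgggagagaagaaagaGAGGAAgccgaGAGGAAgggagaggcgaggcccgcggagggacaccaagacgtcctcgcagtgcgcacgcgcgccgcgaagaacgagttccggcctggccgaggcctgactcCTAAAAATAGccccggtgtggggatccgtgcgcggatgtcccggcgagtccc
Mef2c, chr13:83503784-83504083, plus strand: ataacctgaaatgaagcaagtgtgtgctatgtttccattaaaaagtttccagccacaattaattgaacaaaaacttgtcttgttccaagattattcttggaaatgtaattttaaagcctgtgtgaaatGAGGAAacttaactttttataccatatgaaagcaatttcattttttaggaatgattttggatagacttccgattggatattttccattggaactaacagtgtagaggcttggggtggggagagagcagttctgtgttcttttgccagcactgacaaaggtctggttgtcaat

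The Mef2a window held the MEF2 letters as CTAAAAATAG from 2 bases before the start, and GAGGAA at 114 and 103 bases before it (positions -114, -103 and -2). The Runx1 window held the RUNX letters on the opposite strand, as ACCACA, beginning 28 and 36 bases after the start. The Mef2c window held GAGGAA at position -122, and the Sall1 window held none of the 6 motifs. Over the 13 windows of the 7 members with an entry, 4 held GAGGAA, 1 held TGTGGT, 1 held the MEF2 motif, 2 held TGCTGA and none held TTGCNNAA or the interferon response element. Among all 32817 promoter windows of that length, 28.3% held GAGGAA, 16.8% TGTGGT, 3.69% the MEF2 motif, 10.8% TTGCNNAA, 3.43% the interferon response element and 19.5% TGCTGA. In the windows printed, matches to different motifs did not overlap. A match describes letters and not an occupied site.

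Set per length of exon, the 9 genes spanned more than an order of magnitude in level. Spi1 was the most abundant at 239 CPM per kilobase of exon, a value above that of 98.4% of the 11018 tested genes with a known length. Irf8 followed at 164 CPM per kilobase (97.3%), Sall1 at 121 (95.6%), Cebpb at 102 (94.2%) and Mef2c at 84.9 (92.6%). Mef2a stood at 43.0 CPM per kilobase (82.7%), Maf at 28.4 (74.3%), Cebpa at 14.0 (57.5%) and Runx1 at 10.9 (51.2%). Spi1 and Irf8 thus headed the order, and Cebpa and Runx1 ended it. The order rests on lengths taken as the union of the annotated exons of each gene. The lowest read count of any member in a library was 279, for Cebpa in cerebellum 1.

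The first group is the pair of core myeloid factors. Spi1 (GRCm38 chr2:91082390-91115756, plus strand, 2034 bases of exon) measured 599, 432 and 351 CPM in cerebellum, 450.02, 343 and 455 in striatum, 469.7, 594 and 509.6 in hippocampus, and 726, 443 and 450.3 in cortex. Region means were 461 ± 127, 416 ± 63.3, 524 ± 63.5 and 539.6 ± 161 CPM (SD, n = 3 each) in the same order. Cortex 1 and cerebellum 1 were the 2 highest libraries, and striatum 2 was the lowest. All 3 striatum libraries lay below all 3 hippocampus libraries, but the striatum and cortex libraries overlapped. Its smallest p among the 6 pairs of regions was for striatum against cortex, a log2 difference of -0.38 (SE 0.24, 95% interval -0.89 to 0.14, edgeR adjusted p = 0.805), which shrank to -0.11 without cortex 1.

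Irf8 (chr8:120736358-120756694, plus strand, 3435 bases) was the steadiest of the 9. It measured 627, 500.0 and 526 CPM in cerebellum, 565, 661 and 567 in striatum, 610.4, 607 and 534 in hippocampus, and 541, 478 and 528 in cortex. The highest library, striatum 2, exceeded the lowest, cortex 2, by a factor of 1.38. Its SD within regions was 0.13 on the log2 scale, and 0.426% of the 12217 tested genes had a smaller one, or 1.94% of the 2474 genes averaging at least 100 CPM. The median gene had an SD of 0.57. All 3 striatum libraries lay above all 3 cortex libraries, with means of 598 ± 54.7 CPM in striatum and 516 ± 33.3 CPM in cortex (SD, n = 3 each). The log2 difference was 0.21 (SE 0.14, 95% interval -0.10 to 0.53, edgeR adjusted p = 0.810), and 0.14 without striatum 2.

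Sall1 (chr8:89027235-89044162, minus strand, 5265 bases) varied most. It measured 392, 766 and 939.7 CPM in cerebellum, 696, 834 and 858 in striatum, 565, 322 and 668 in hippocampus, and 302, 649 and 634 in cortex. The 3 low libraries, cortex 1, hippocampus 2 and cerebellum 1, came from 3 different regions, and striatum was the region without a low library. Its highest value, in cerebellum 3, was 3.12 times its lowest. Striatum averaged 796 ± 87.7 CPM against 518 ± 178 CPM in hippocampus and 528 ± 196 CPM in cortex (SD, n = 3 each), and its libraries overlapped neither group. The log2 difference between striatum and hippocampus was 0.62 (SE 0.36, 95% interval -0.15 to 1.39, edgeR adjusted p = 0.948). It was 0.37 without hippocampus 2. The difference between striatum and cortex was 0.59 (95% interval -0.18 to 1.36, edgeR adjusted p = 0.798), and 0.31 without cortex 1.

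Of the enhancer-binding factors with longer transcripts, Maf (chr8:115682942-115707794, minus strand, 8241 bases) measured 239, 205 and 245 CPM in cerebellum, 304, 203 and 193 in striatum, 268, 177 and 194 in hippocampus, and 264, 244 and 268 in cortex. The 3 cortex libraries lay close together, with an SD of 13.4 CPM around 259, and every other region overlapped them. Its largest contrast, hippocampus against cortex, was -0.28 (SE 0.21, 95% interval -0.74 to 0.18, edgeR adjusted p = 1). It was -0.48 without hippocampus 1 and -0.16 without hippocampus 2. An antisense gene, Gm15655, overlaps 5.34% of the Maf exon length, and counting by strand is not stated. Gm26626 overlaps 1.42% of Runx1 and Gm45091 overlaps 1.93% of Cebpa. Reads from those stretches cannot be told apart, and none of these antisense genes is listed in the table.

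Mef2c (chr13:83504034-83667080, plus strand, 7307 bases) measured 425, 619 and 916 CPM in cerebellum, 749.8, 573 and 704 in striatum, 579.8, 478 and 738 in hippocampus, and 318, 652 and 690.5 in cortex. Mef2a (chr7:67231163-67372858, minus strand, 5696 bases) measured 218, 228 and 297 CPM in cerebellum, 246, 196 and 268 in striatum, 281, 240.1 and 284 in hippocampus, and 152, 238 and 289 in cortex. Both had their lowest value in cortex 1 and their highest in cerebellum 3, and no pair of regions was free of overlap for either. The smallest p for Mef2c was in striatum against cortex, at 0.29 (95% interval -0.39 to 0.96, edgeR adjusted p = 0.863). That for Mef2a was in hippocampus against cortex, at 0.25 (95% interval -0.26 to 0.75, edgeR adjusted p = 1). Both differences rested on cortex 1: without it they were 0.0059 for Mef2c and 0.024 for Mef2a, and without cortex 3 they were 0.48 for Mef2c and 0.46 for Mef2a. Within each library, Mef2c stayed above Mef2a per kilobase, by a factor of 1.52 to 2.40.

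Runx1 (chr16:92601466-92826149, minus strand, 7452 bases) gave the largest difference between regions of any member. It measured 59.7, 110.1 and 96.8 CPM in cerebellum, 88.2, 130 and 90.2 in striatum, 70.3, 49.97 and 98.1 in hippocampus, and 51.8, 61.3 and 65.2 in cortex. All 3 striatum libraries lay above all 3 cortex libraries, while hippocampus and cerebellum overlapped both. Striatum averaged 103 ± 23.5 CPM against 59.4 ± 6.88 CPM in cortex (SD, n = 3 each). The log2 difference was 0.79 (SE 0.31, 95% interval 0.12 to 1.46), with an unadjusted p of 0.0244 and an edgeR adjusted p of 0.798, so it did not pass. The unadjusted p was 0.0878, at a difference of 0.59, without striatum 2, the library with both the highest Runx1 value and the many genes at 0, and 0.0724, at 0.69, without cortex 1. The part of the missing genes in this difference was not tested.

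The C/EBP genes have short transcripts and differed from each other in level and in spread. Cebpb (chr2:167688915-167690418, plus strand, 1504 bases) measured 205, 161 and 96.3 CPM in cerebellum, 146, 142 and 125 in striatum, 153, 149 and 139 in hippocampus, and 244, 146 and 130.2 in cortex. Cebpa (chr7:35119293-35121928, plus strand, 2636 bases) measured 32.3, 36.7 and 52.3 CPM in cerebellum, 44.4, 53.8 and 25.1 in striatum, 37.1, 34.0 and 30.0 in hippocampus, and 32.9, 33.8 and 30.6 in cortex. Cebpb was highest in cortex 1 and lowest in cerebellum 3, the reverse of Mef2c and Mef2a, and Cebpa was both highest and lowest within striatum. In striatum against cortex the log2 difference was -0.33 for Cebpb (95% interval -0.95 to 0.29, edgeR adjusted p = 0.836) and 0.34 for Cebpa (95% interval -0.39 to 1.07, edgeR adjusted p = 0.856). The Cebpb difference was -0.0071 without cortex 1 and -0.50 without cortex 3. The Cebpa difference was 0.098 without striatum 2 and 0.60 without striatum 3. Cortex 1 also held the highest sum of 10 stress response genes, 816 CPM, and cerebellum 3 the lowest, 445 CPM, and the part of that in the Cebpb values was not tested. Cebpb exceeded Cebpa per kilobase in each library, by a factor of 3.22 to 13.0.

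**Figure D1:**
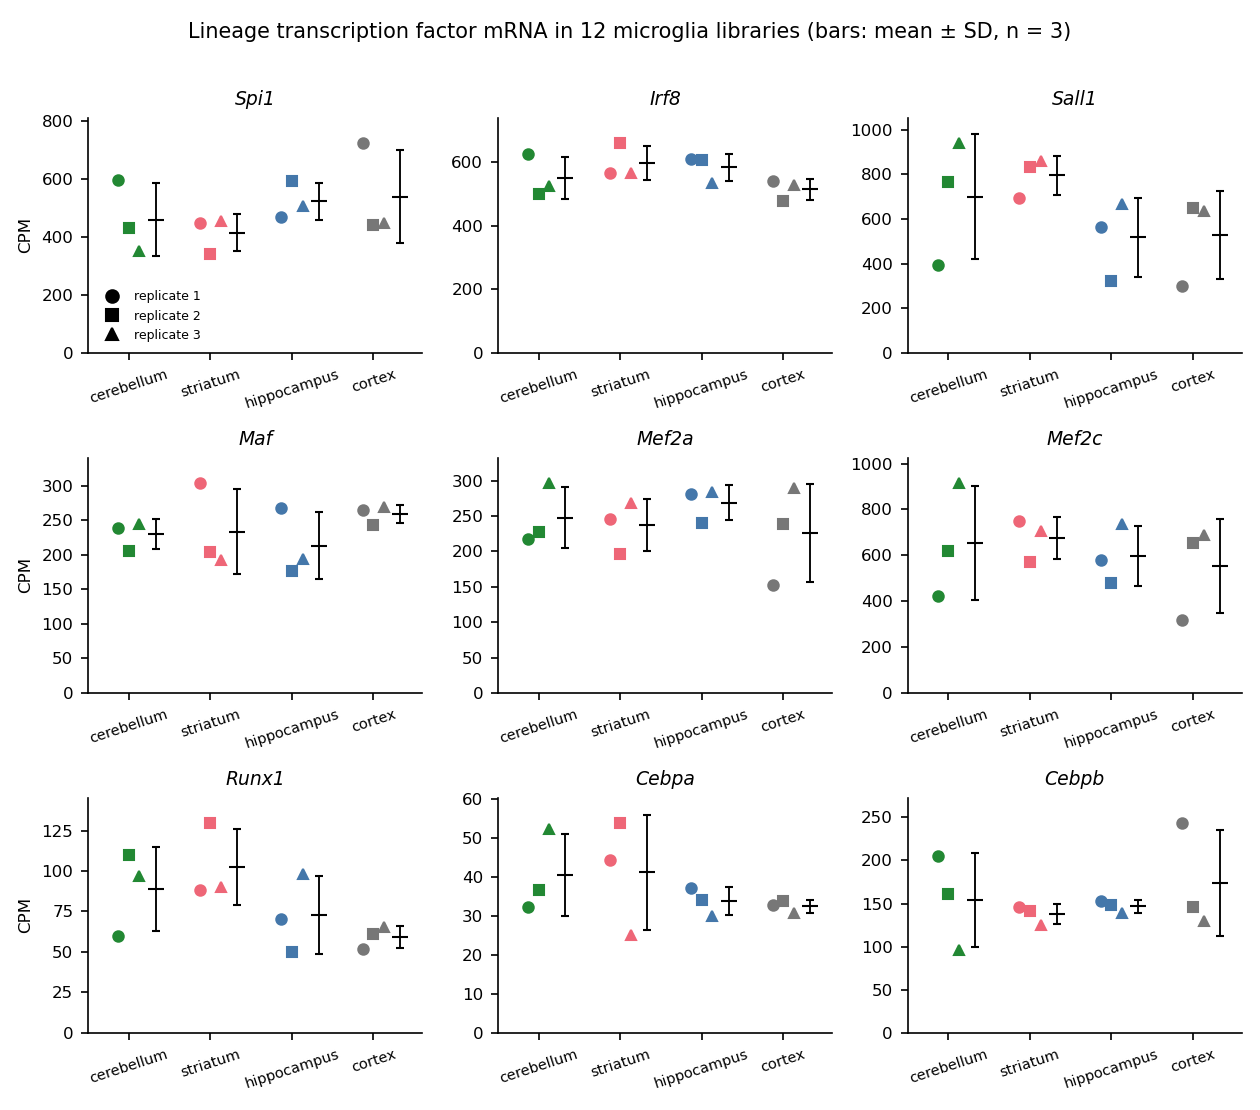
CPM of each of the 9 genes (vertical axes, each from 0) in the cerebellum, striatum, hippocampus and cortex libraries, with symbols for replicates 1 to 3 and bars for mean ± SD (n = 3). Irf8 stays between 478 and 661 CPM, whereas Sall1 reaches from 302 to 939.7 CPM within the same libraries.

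No member passed an adjusted p of 0.05 in any of the 6 pairs of regions, in cerebellum against the average of hippocampus, striatum and cortex, or in the test of the 4 regions together (edgeR quasi-likelihood test, Benjamini-Hochberg adjustment over 12217 genes). The background was the same, since 0 of 12217 genes (0%) passed in each of those 8 comparisons. DESeq2 called 0 to 13 genes in a comparison and limma-voom called 0, and neither called a member. At an unadjusted p under 0.05, 1 of 9 members (Runx1) came up in striatum against cortex, where 5.59% of all genes did (683 genes). None of the 9 did in the other comparisons, where the share of all genes was 1.01% for hippocampus against cortex, 1.55% for cerebellum against cortex, 4.34% for striatum against hippocampus, 1.28% for cerebellum against hippocampus, 2.4% for cerebellum against striatum, 1.07% for cerebellum against the mean of the others and 1.82% for the 4 regions together. In the test of the 4 regions together the edgeR adjusted p was 1.00 for every member, and the unadjusted p ran from 0.110 for Runx1 to 0.795 for Mef2c.

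**Figure D2:**
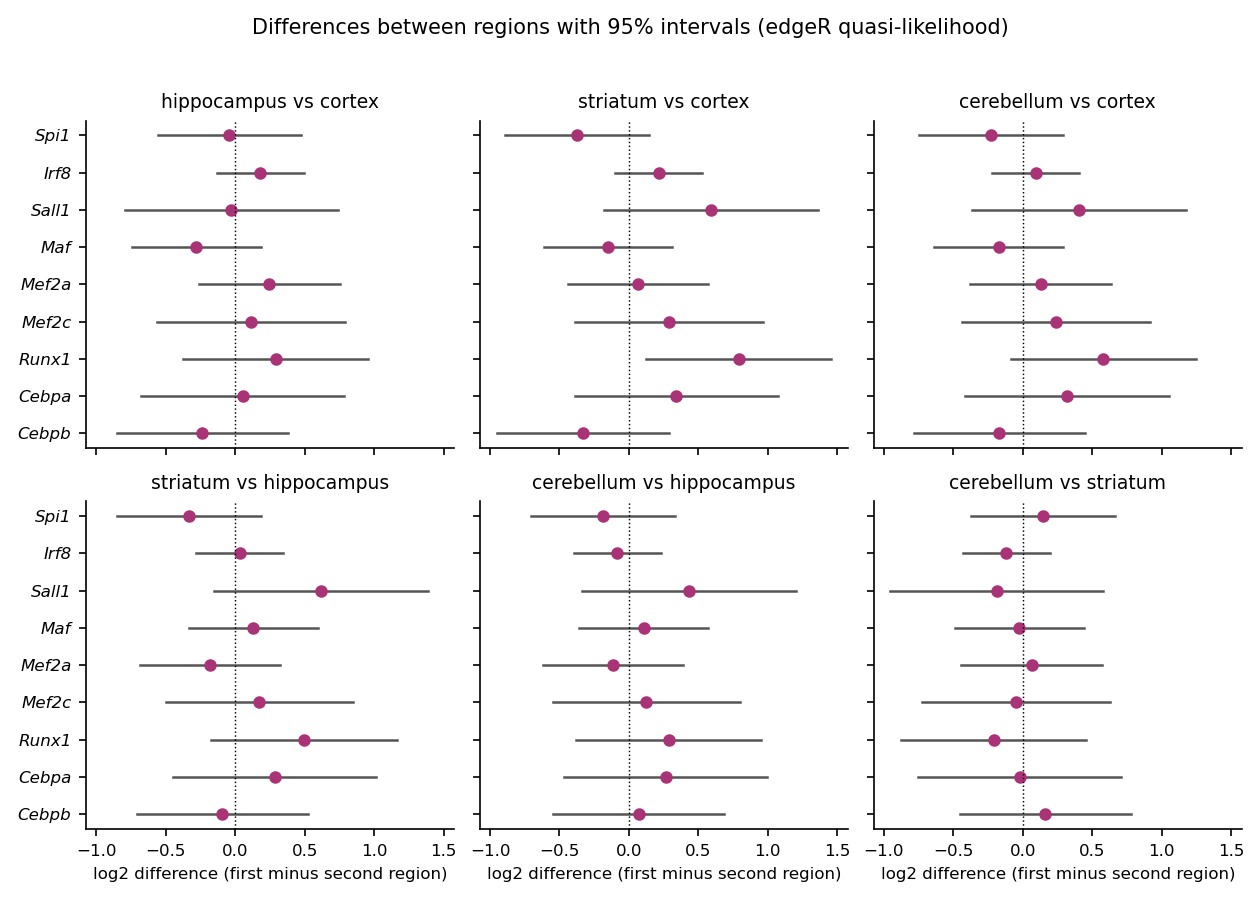
Log2 difference between regions (horizontal axes, first minus second region) for the 9 genes in each of the 6 pairs, with 95% intervals from the edgeR fit. Of the 54 intervals, 53 include 0, the exception being Runx1 in striatum against cortex at 0.79 (0.12 to 1.46).

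The intervals say how large a difference these libraries could still hold. Of the 54 differences (9 genes in 6 pairs), 50 were under 0.5 on the log2 scale in size, but the intervals for Sall1 reached up to 1.39 and those for Runx1 up to 1.46. For Irf8 they stayed within -0.43 and 0.53. Libraries of striatum and cortex did not overlap for 3 of the 9 members, Irf8, Sall1 and Runx1, all higher in striatum, where 10.6% of all genes did not overlap in either direction and 4.61% did not with striatum higher. Striatum and hippocampus did not overlap for 2 of 9, with Sall1 higher and Spi1 lower in striatum, where 11.5% of all genes did not (4.9% with striatum higher and 6.59% with striatum lower). No member was free of overlap in the other 4 pairs, where the share of all genes was 6.69% for hippocampus against cortex, 6.75% for cerebellum against cortex, 7.63% for cerebellum against hippocampus and 6.34% for cerebellum against striatum, or in cerebellum against the others, where 0.352% were.

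The libraries also differed along the length of the transcript. For each library, the median log2 deviation of the longest 20% of tested genes (over 5400.6 bases of exon) minus that of the shortest 20% (up to 1821 bases) was taken as a measure of the balance between long and short genes. It was -0.63, 0.23 and 0.77 in cerebellum, 0.13, 0.14 and 0.28 in striatum, 0.04, -0.52 and 0.37 in hippocampus, and -0.97, 0.13 and 0.22 in cortex. Cortex 1, cerebellum 1 and hippocampus 2 were the 3 libraries below 0. They came from 3 different regions, and no striatum library was below 0. Comparisons with striatum are therefore partly aligned with this balance.

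Of the 9 members, 6 had a rho of 0.61 to 0.84 in size with this balance. The longer ones of the 6 moved in its direction and the shorter ones against it. Such directions are partly built in, since the balance was taken from long and short genes of these same libraries. The share of all genes with values of that size was not computed. Over the 12 libraries, Spearman's rho of CPM with the length contrast was 0.84 for Sall1, 0.80 for Mef2c, 0.76 for Runx1 and 0.64 for Mef2a, and -0.82 for Cebpb and -0.61 for Spi1 (Pearson's r on the log2 scale 0.93, 0.96, 0.72, 0.75, -0.90 and -0.86 in the same order). Irf8 (-0.46), Maf (-0.22) and Cebpa (-0.05) followed it less, although Maf has the longest exons of the 9. These values describe libraries that share their depth and preparation, and carry no test. The same 3 libraries had the 3 lowest sums of 8 border macrophage genes, at 277 CPM in cortex 1, 257 in cerebellum 1 and 372 in hippocampus 2, against 405 to 861 CPM in the other 9. That sum was mostly 1 gene, Mrc1, which averaged 475 CPM over the 12 libraries, while the next, F13a1, averaged 19.1 CPM. Mrc1 is itself a long gene (88.4 CPM per kilobase of exon), and the part of length in this sum was not tested. The parts of transcript length, cell purity and region in the values of the members were not tested against each other.

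**Figure D3:**
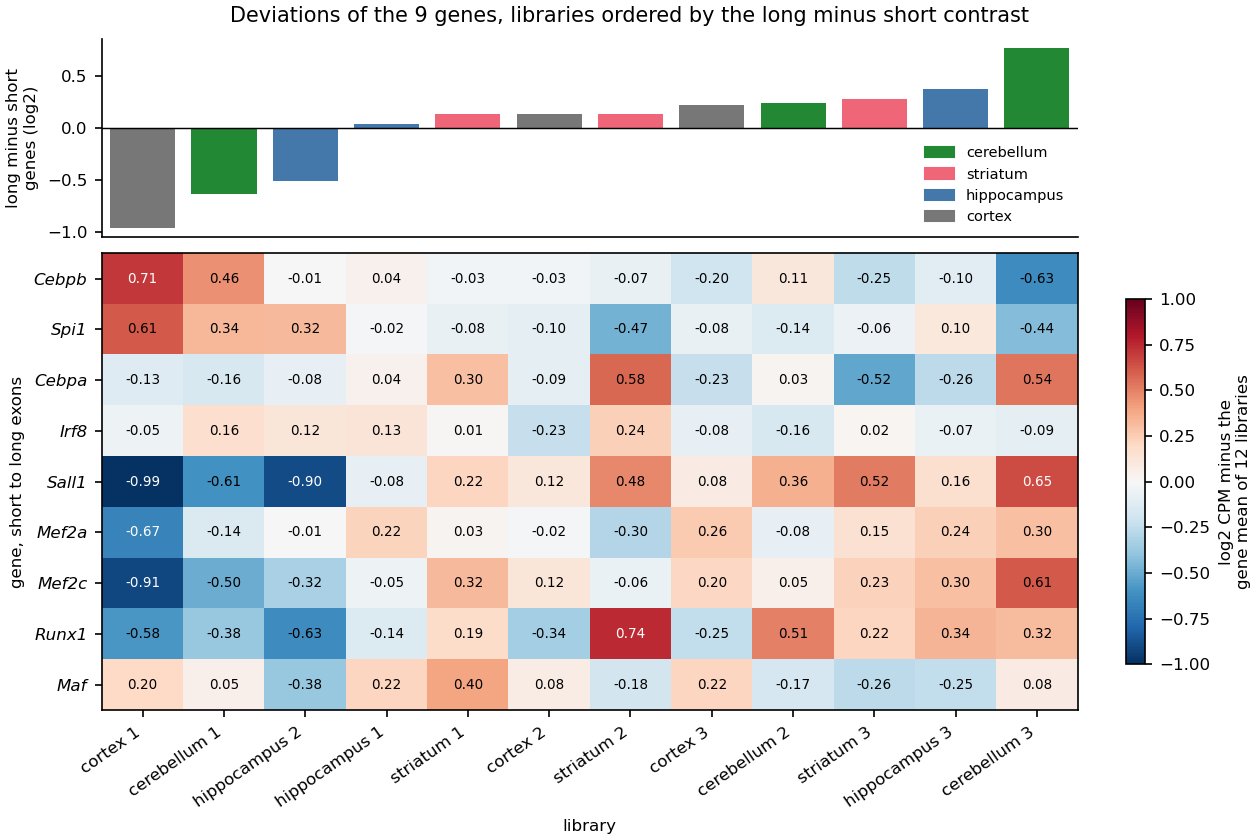
Upper panel, the contrast between long and short genes in each library (log2, libraries ordered by it and coloured by region); lower panel, log2 CPM of each of the 9 genes minus its mean over the 12 libraries, with genes ordered from short to long exons. Sall1 runs from -0.99 in cortex 1 to 0.65 in cerebellum 3, and Cebpb from 0.71 to -0.63 in the same libraries.

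Several members also moved together or apart over the libraries. Of the 36 pairs of members, 8 had a Spearman's rho of at least 0.7 in size over the 12 libraries, 3 positive and 5 negative. Sall1 and Runx1 varied together (rho 0.84, Pearson's r 0.85 on the log2 scale, 0.74 without the 2 libraries farthest from the median of Sall1). In each pair the 2 libraries left out were those farthest for the gene that comes earlier in the order of the opening list. Mef2a and Mef2c gave rho 0.78 (r 0.82, 0.69 without the 2 farthest), and Sall1 and Mef2c gave 0.72 (r 0.87, 0.76 without the 2 farthest).

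The opposite sign joined the short Spi1 and Cebpb with the longer genes. Spi1 and Sall1 gave rho -0.80 (r -0.91, and -0.83 without the 2 farthest), and Spi1 and Runx1 gave -0.71 (r -0.78, -0.69 without the 2 farthest). Cebpb gave -0.78 with Mef2c (r -0.91, -0.73), -0.72 with Mef2a (r -0.80, -0.78) and -0.71 with Sall1 (r -0.77, -0.81). With region means removed, all 8 pairs kept an r of 0.71 to 0.91 in size. Of the other 12216 genes, 2.51% had a rho of at least 0.8 with Sall1, and 3.72% had one of -0.8 or below. These were the highest shares for any member, and for Maf they were 0.09% and 0.106%. Shares of all genes at 0.7, the cut used to count the pairs, are not given here. The count of 8 pairs therefore has no matching background.

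After a correction for exon length, an alternative chosen after seeing the data, the pairs separated into those that held and those that weakened. Spi1 and Sall1 stayed at rho -0.71 and Sall1 and Runx1 at 0.69, and Mef2c and Cebpb came to -0.59. Spi1 and Runx1 came to -0.36, Sall1 and Mef2c to 0.35, Sall1 and Cebpb to -0.35, Mef2a and Mef2c to 0.31 and Mef2a and Cebpb to -0.30. All 8 kept their sign, but 14 of the 36 pairs changed theirs. Spi1 and Cebpa, at -0.60 before the correction, came to -0.85 after it. Over all 36 pairs, the median size of rho was 0.29 before the correction and 0.32 after it.

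**Figure D4:**
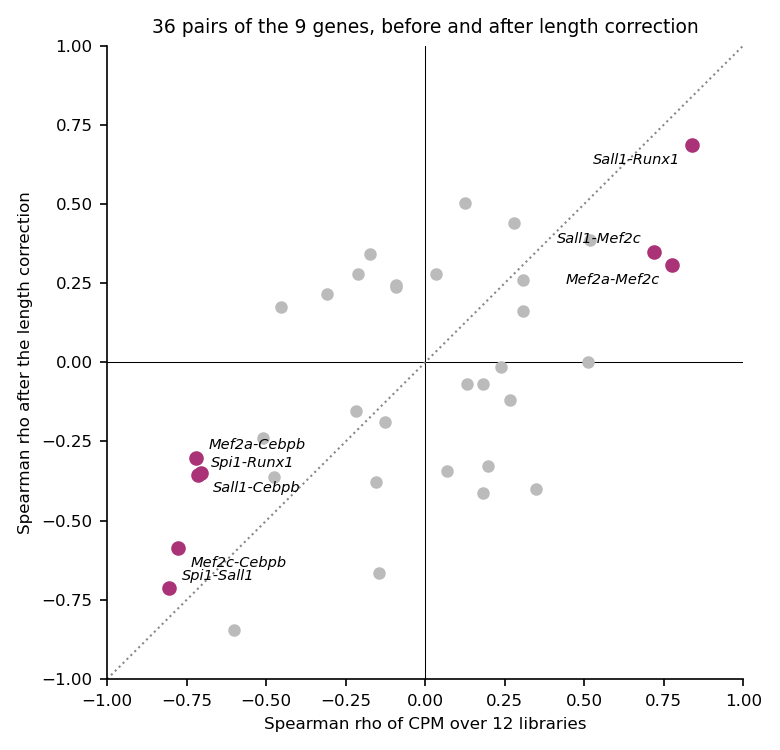
Spearman's rho of each of the 36 pairs of the 9 genes over 12 libraries before (horizontal axis) and after (vertical axis) the correction for exon length, with the 8 pairs of at least 0.7 in size before it named. Spi1 with Sall1 (-0.80 and -0.71) and Sall1 with Runx1 (0.84 and 0.69) lie near the dotted line of equality, and Mef2a with Mef2c (0.78 and 0.31) lies far from it.

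The genes most like each member over the 12 libraries, by Spearman's rho of CPM, were as follows, with no statement on shared control. For Spi1 they were Eif2b2, a subunit of a translation initiation factor (rho 0.97), and Sucla2, an enzyme of the citric acid cycle (0.97). For Irf8 they were Fundc1, a receptor for mitochondrial turnover (0.94), and Dram2, a lysosomal membrane protein (0.93). For Sall1 they were Setdb1, a histone H3 methyltransferase (0.97), and Dgkd, a diacylglycerol kinase (0.96).

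For Mef2c they were Atp2c1, a calcium pump of the Golgi (0.97), and Tanc2, a scaffold protein (0.95), and for Mef2a Arap2, a GTPase-activating protein (0.94), and D6Wsu116e (0.94). For Runx1 they were Rapgef5, an exchange factor for Rap GTPases (0.96), and Morc3, a nuclear ATPase (0.94). For Cebpb they were Trappc4, a vesicle tethering subunit (0.97), and Scamp4, a membrane carrier protein (0.95). Maf was most like Mtf1, a metal-responsive factor, and Pkmyt1, a cell cycle kinase (0.88 each), and Cebpa like Lig4, a DNA ligase (0.89), and BC031781 (0.85). On the log2 scale, Pearson's r for these 18 genes ran from 0.38 (Maf with Mtf1) to 0.96 (Sall1 with Dgkd), and was 0.55 for Mef2a with Arap2. The rho values were picked as the highest among the tested genes, and no chance level was computed. After the length correction the 18 rho values ran from 0.15 (Maf with Pkmyt1) to 0.95 (Irf8 with Dram2), and Sall1 kept 0.94 with both Setdb1 and Dgkd.

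The relatives and partners of the 9 genes gave the same picture. Of 69 listed transcription factors and partners, all 69 were in the table, 54 were tested and 0 passed in any of the 8 comparisons, where 0% of all genes passed (edgeR, Benjamini-Hochberg adjustment; 0 to 2 at an unadjusted p under 0.05 in a comparison). Levels per length differed among close relatives. Irf5 stood at 151 CPM per kilobase beside Irf8 at 164, and Mef2d stood at 7.92 beside Mef2c at 84.9.

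Other relatives had few reads or none. Sall4, Nrl, Gata6 and Gfi1 had no read in any library, and Spib, Spic, Mafa, Mef2b, Runx2, Runx3 and Cebpe each had no read in 5 or more of the 12 libraries. Spib, which reached 19.6 CPM in striatum 1, was at most 5.08 CPM elsewhere. Cbfb, the partner of the RUNX factors, averaged 138 CPM, and Jun, a partner of C/EBP and PU.1 factors, 198 CPM. Irf3, which relays innate sensing to interferon genes, was the only one of the 54 under an unadjusted p of 0.05 in the 4 regions together, with an unadjusted p of 0.0292 and an edgeR adjusted p of 1.00. It measured 135, 132 and 133 CPM in cerebellum, 132.5, 83.7 and 108 in striatum, 92.8, 93.2 and 79.7 in hippocampus, and 156, 122 and 142 in cortex. All 3 hippocampus libraries lay below all 3 cortex libraries, with a log2 difference of -0.66 (SE 0.21, 95% interval -1.11 to -0.21, edgeR adjusted p = 1).

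The direction of the lists in striatum against cortex differed from list to list. Of the 13 tested genes of 14 other microglial factors, 11 were higher and 2 lower in striatum, with a median log2 difference of 0.41, and all 10 tested ETS relatives of Spi1 were higher (median 0.33). Fli1 and Etv5 stand in both lists. Over all genes 45.7% were higher, with a median of -0.06. The lean was not particular to this pair. In striatum against hippocampus 12 of 13 other microglial factors and 9 of 10 ETS relatives were higher (46.1% of all genes). In cerebellum they were 10 and 8 against cortex (50.9%) and 11 and 8 against hippocampus (51.3%). In hippocampus against cortex they were 7 and 7 (47.1%), and in cerebellum against striatum 4 and 1 (55.7%).

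In striatum against cortex the other lists were mixed. Of the IRF relatives 4 were higher and 4 lower, of the partners 4 and 6, of the MAF relatives 2 and 2, of the C/EBP relatives 2 and 1, and of the factors of other macrophages 3 and 2, while both SALL relatives and Mef2d were lower and Cbfb was higher. For the 9 members themselves 6 were higher and 3 lower, with a median of 0.21. None of these genes passed alone.

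Both one-sided lists had their highest sum in striatum 2. Without that library the other microglial factors were 10 higher and 3 lower (median 0.10), and the 12 ETS relatives then tested were 10 higher and 1 lower (median 0.23), against a median of -0.01 over all genes. Without cortex 1 they were 11 and 2 (median 0.24) and, of 11 ETS relatives, 8 and 3 (median 0.18), against -0.02 over all genes. The 9 members were 5 higher and 4 lower without cortex 1 (median 0.0059), and 6 and 3 without striatum 2 (median 0.14). These counts without a library were chosen after seeing the data.

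Another list held 20 marker genes of microglia, Csf1r among them, a known target of PU.1. None of the 20 passed in any comparison. Over the 7 comparisons with a direction, between 9 (striatum against hippocampus) and 17 (cerebellum against cortex) of the 20 were higher. Of all genes, 46.1% and 50.9% were higher in those 2 comparisons. The median log2 differences of the 20 were -0.02 to 0.09. Their sum stayed between 40288 and 57348 CPM over the 12 libraries, the highest in cerebellum 1. Csf1r, the receptor for the survival factor of microglia, had an unadjusted p of 0.0441 in the 4 regions together (edgeR adjusted p = 1.00) and a log2 difference of 0.46 in striatum against cortex (95% interval 0.14 to 0.78, edgeR adjusted p = 0.798). Its highest library was striatum 2 (10740 CPM) and its lowest cortex 1 (5691 CPM), the libraries set apart above. The Csf1r difference without either of them is not given here.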

How the data were processed

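The authors deposited raw read counts (whole numbers, not normalized) for each gene symbol in 12 libraries. Per the labels' protocols, cDNA was made with the Smart-Seq v4 kit (9 cycles), and 380 pg went into libraries amplified for 13 cycles; the kit does not mark strand. Per the submitters' processing notes, the tools were STAR 2.5.3a, Trim Galore 0.4.3, HTSeq and Picard, with mm10. What each did, which annotation was used and whether counting used strand is not given in the sources used here.

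The edgeR package 4.0.16 (R 4.3.3) was applied to these counts. Low genes were removed with filterByExpr (minimum count 10, minimum total 15), leaving 12217; sizes were scaled by TMM, and all 12 libraries entered one fit with a mean per region and a common estimate of the spread. Tests were robust quasi-likelihood tests with Benjamini-Hochberg adjustment and a threshold of 0.05. The floor of 3 counts and all intervals cover only what their model covers: PCR reads carry no molecular identifiers. CPM are edgeR values; log2 CPM used a prior count of 2. Exon lengths are unions of GENCODE M21 exons on GRCm38, known for 90.2% of tested genes. Spi1 was matched to Sfpi1 through RefSeq synonyms. The length correction subtracts, in each library, a spline (5 degrees of freedom, centred on its median) of log2 deviation on log10 exon length. No 2 libraries of a region agreed within sampling noise (chi-square per degree of freedom 33.8 to 97.5). Correlations were computed for 36 pairs and described without a test.

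Named genes are the 9 members, for each member the pair of regions with the smallest p and the 2 most alike tested genes (predicted genes and RIKEN clones left out), the leading markers and, for each related list, the gene with the smallest p over the 4 regions; others were named after their values were seen. A result that this rule covers is not reported here. The members and lists were chosen with earlier results of these data known. The scripts were tested on simulated data. Alternatives were RLE scaling, total counts, other filters, DESeq2 1.42.0, limma-voom (limma 3.58.1), a fit without robust estimation, a replicate block and leaving out each library.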

Additional observations from a re-analysis of the deposited data

How the results depend on the processing

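No call on the 9 members depended on the processing. Under every alternative run, 0 members were called in each of the 8 comparisons, and the 9 named log2 differences, none of which passed, kept their sign in all 189 refits. Their size was less stable: without cortex 1 those of Mef2c (0.0059), Mef2a (0.024) and Cebpb (-0.0071) came close to 0. With DESeq2 in place of edgeR (0 genes in each), 5 genes were called in hippocampus against cortex, 13 in striatum against cortex, 7 in cerebellum against cortex, 2 in cerebellum against hippocampus, 3 in cerebellum against striatum, 2 in cerebellum against the mean of the others and 5 in the 4 regions together, and the cause was not tested. Leaving out each library in turn called 0 genes in each fit. The Runx1 difference between striatum and cortex ran from 0.59 to 0.89 over the 12 such fits, with an unadjusted p under 0.05 in 10, and its adjusted p ran from 0.596 to 1.0 over the edgeR alternatives and was 0.549 with DESeq2 and 0.639 with limma-voom. The length correction, chosen after seeing the data, called 0 genes, and its effect on the correlations is given with them. With it, striatum against cortex gave -0.24 for Spi1, -0.14 for Cebpb, 0.20 for Mef2c, 0.21 for Irf8, 0.39 for Cebpa and 0.65 for Runx1. Sall1 in striatum against hippocampus came to 0.57. In hippocampus against cortex, Maf came to -0.33 and Mef2a to 0.25.

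Whether the replicate numbers pair the samples was not settled. Of 18 same-numbered pairs of libraries, 4 had correlated deviations over 0.1 (-0.12 to 0.29, median 0.026). Of 36 pairs with different numbers, 2 did (-0.23 to 0.20, median -0.013). In all, 7 of 12 libraries correlated best with their own number. A fit with the replicate block called 0 genes in each comparison and gave 0.79 for Runx1 in striatum against cortex (unadjusted p 0.0224). Libraries of 6479839 to 14833340 counts give at least 279 counts for each member, so the spread between libraries, not depth, sets the width of the intervals.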
